A study of Mus musculus with 4 samples.

Results

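Genes for the plasma proteins and metabolic enzymes that define a mature hepatocyte were examined in 4 mouse liver tumor samples, each read on its own Affymetrix mouse array. The set held 38 named genes, and 37 of them had at least 1 probe set (a group of short probes for 1 transcript) annotated to that gene symbol and no other. Trf, the transferrin gene, had none and is not analysed here. A further 3 probe sets were annotated to a member together with another symbol, and they were not used. The 37 measured members stood among 18193 measured genes in all, and 58 probe sets belonged to them. They were 8 plasma carrier and protease inhibitor genes, 8 apolipoprotein and lipoprotein assembly genes, 6 clotting genes, 6 cytochrome P450 genes, and 9 genes for enzymes of the urea cycle, amino acid breakdown or glucose production and for 1 uptake transporter.

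The p53 on group was 2 tumor samples from mice given doxycycline in the chow for 8 days, and the p53 off group was 2 tumor samples at 0 days. The tumors had grown from liver progenitor cells (LPCs) placed into the livers of recipient mice, were driven by HrasV12, an activated form of the RAS oncogene, and carried shp53, a short hairpin RNA against p53 under tet-off control, so that doxycycline silences the hairpin and p53 returns. No sample had doxycycline without the hairpin, so effects of p53, of doxycycline and of time cannot be told apart. Nothing in the labels ties the replicates to different mice or tumors, so p-values measure the spread between these arrays only. Each sample is a piece of tissue, in which fewer cells of a type and less RNA per cell cannot be told apart, and host liver, vessels and immune cells can be part of it.

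The hepatocyte makes most of the proteins of blood plasma and packs lipids into lipoproteins. It also clears drugs and makes bile acids with cytochrome P450 enzymes, turns ammonia into urea and produces glucose. Liver progenitor cells can mature into hepatocytes or bile duct cells, and transcription factors of the HNF1, HNF4, FOXA and C/EBP families drive the hepatocyte genes. Several of these genes are also active elsewhere: Apoe in macrophages, Apob and Apoa4 in the intestine, and Rbp4 in adipose tissue.

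The promoters of 4 members are shown because these genes span the findings: among the called members Rbp4 and Apob fell most and Fbp1 rose most, and Alb, the albumin gene, was dim and showed no change past the threshold. Each sequence is the 250 bases before the start of transcription listed by RefSeq (build GRCm38.p6), read 5′ to 3′ on the strand of the gene, and capitals mark matches to the motifs named in the next paragraph. Rbp4 has 2 listed starts, and the window of the first is given.
Rbp4, chr19:38125322-38125571, minus strand: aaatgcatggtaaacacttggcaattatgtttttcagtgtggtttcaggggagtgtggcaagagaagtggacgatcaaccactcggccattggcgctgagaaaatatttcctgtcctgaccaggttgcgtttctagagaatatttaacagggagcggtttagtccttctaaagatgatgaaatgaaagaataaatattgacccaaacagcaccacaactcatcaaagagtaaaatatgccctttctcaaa
Apob, chr12:7977427-7977676, plus strand: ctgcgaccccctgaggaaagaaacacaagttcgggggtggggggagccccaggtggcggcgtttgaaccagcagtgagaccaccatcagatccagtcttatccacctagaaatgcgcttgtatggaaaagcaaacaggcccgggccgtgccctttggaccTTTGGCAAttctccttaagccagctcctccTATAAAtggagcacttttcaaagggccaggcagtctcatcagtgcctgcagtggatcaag
Fbp1, chr13:62888283-62888532, minus strand: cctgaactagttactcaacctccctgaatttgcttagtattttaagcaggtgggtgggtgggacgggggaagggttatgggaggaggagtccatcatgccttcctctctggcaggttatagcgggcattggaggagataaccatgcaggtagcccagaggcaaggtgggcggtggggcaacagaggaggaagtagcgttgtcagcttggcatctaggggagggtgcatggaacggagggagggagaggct
Alb, chr5:90460620-90460869, plus strand: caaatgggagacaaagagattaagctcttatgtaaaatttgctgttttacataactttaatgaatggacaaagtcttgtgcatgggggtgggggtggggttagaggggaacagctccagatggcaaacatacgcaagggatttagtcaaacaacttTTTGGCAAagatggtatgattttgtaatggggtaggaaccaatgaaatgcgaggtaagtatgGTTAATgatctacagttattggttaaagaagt

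A RefSeq promoter window was matched for 31 of the 38 members, and Apoc3, Cps1, Cyp7a1, Hp, Plg, Trf and Ttr had no window here. The motifs searched were an HNF1 site (GTTAAT), an HNF4 site (CAAAGTCCA) and a C/EBP site (TTGCNNAA) on both strands, and a TATA box (TATAAA) on the strand of the gene, and no motif overlapped another in the windows shown. Apob and Alb both held TTTGGCAA, a C/EBP match on the opposite strand, at 90 to 83 bases before the Apob start and 94 to 87 bases before the Alb start. The Apob window also held a TATA box at 60 to 55 bases, and the Alb window an HNF1 site at 32 to 27 bases before the start. The windows of Rbp4 and Fbp1 held none of these letters. Across members, the C/EBP letters were in 7 of 31 genes (22.6%; Ahsg, Alb, Apob, F9, Fga, Fgb and Hpx), against 9.56% of 32851 windows of the same length. The HNF1 site was in 6 genes (19.4%, against 6.43% of all windows), the HNF4 site in Cyp3a11 and Cyp8b1 (6.45%, against 0.384%), and the TATA box in 8 (25.8%, against 7.59%). A member with several listed starts was counted by the window of its first listed start only, while the shares of all windows count every listed start. These matches describe letters and not binding.

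Values are log2 RMA values, an array intensity scale with no detection call and no true zero, and probe sets differ in how strongly they bind, so a percentile or a mean given here describes the brightness of a probe set and does not order genes by their amount of RNA. The medians of all probe sets were 7.39 and 7.39 in p53 on and 7.34 and 7.29 in p53 off. Over genes the 2 p53 on arrays correlated at 0.993 and the 2 p53 off arrays at 0.997, and pairs across groups at 0.965 to 0.972. The 2 p53 on arrays differed more from each other (SD of the difference over genes 0.231) than the 2 p53 off arrays did (0.16). P53 on replicate 1 stood apart in genes of other tissues. All 12 of a list of 12 skeletal muscle genes were at least 0.5 higher there than in p53 on replicate 2, as were 7 of 10 measured adipocyte genes. The summed unlogged level of the muscle list was 35250 and 4666 in p53 on and 2840 and 6009 in p53 off, and that of the adipocyte list 13540 and 3404 in p53 on and 1968 and 1926 in p53 off. Both lists were chosen after the data were seen, and limma called 0 muscle genes and 2 adipocyte genes (Fabp4 and Lipe, both higher). Myh4, a fast muscle myosin gene, stood at 10.53 and 5.36 in p53 on and 5.03 and 6.66 in p53 off, and Adipoq, the adiponectin gene, at 9.77 and 5.39 in p53 on and 5.79 and 5.44 in p53 off. Member results that rest on this array are given with and without it, and those of genes outside the members are not.

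Most genes that define a hepatocyte were dim in all 4 arrays. Of the 37 members, 31 had a mean below the median of all genes (8.27), and 1, Apoe, was in the highest 10% of genes. For scale, 27 control probe sets for Bacillus genes, which mouse RNA does not contain, had means of 4.86 to 6.49 with a median of 5.23. The mean of 16 of the 37 members was at or below the highest of these, a larger share than the 21.1% of all genes (3832) for which this held. Alb, which encodes the most abundant plasma protein, read 7.39 and 6.96 in p53 on and 7.07 and 7.06 in p53 off. The fibrinogen chain genes Fga, Fgb and Fgg, the urea cycle genes Ass1 and Otc, and Pck1, the gene of a rate-limiting enzyme of glucose production, all had means within the range of the control probe sets. Few defining hepatocyte genes were bright in these arrays, so the members are called here by their genes and not as a sign of that cell type.

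**Figure D1:**
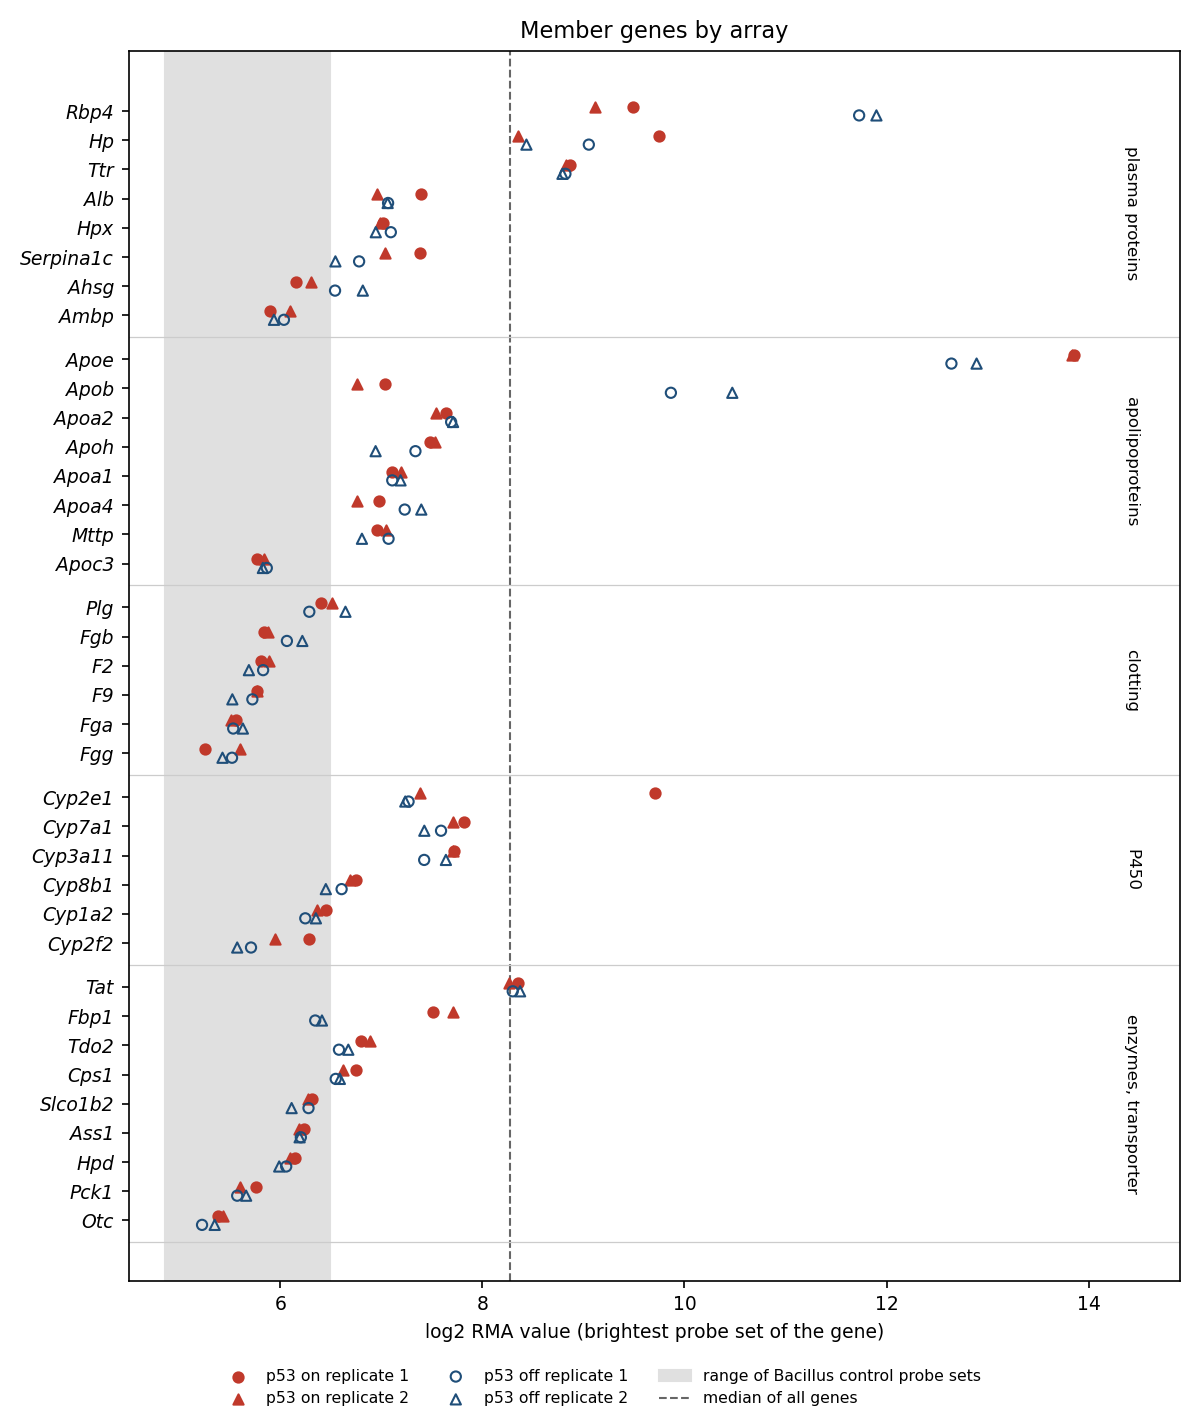
Log2 RMA value (horizontal axis) of the brightest probe set of each of the 37 measured members (vertical axis, by class), with 1 point per array: filled red for p53 on, open blue for p53 off, circles for replicate 1 and triangles for replicate 2. The grey band is the range of means of 27 Bacillus control probe sets (4.86 to 6.49) and the dashed line the median of all genes (8.27). Apoe, Rbp4, Apob and Fbp1 show wide gaps between groups, in Cyp2e1 a single red circle stands apart, and in Hp both circles (replicate 1 of each group) lie above both triangles.

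Between the groups, 8 of 37 members (21.6%) passed an adjusted p of 0.05 with limma, against 28.7% of all 18193 genes. Of these, 4 rose in p53 on (Apoe, Fbp1, Serpina1c and Cyp2f2), where 14.0% of all genes rose, and 4 fell (Apob, Rbp4, Ahsg and Apoa4), where 14.7% of all genes fell. The set was called no more often than genes at large, but the 2 shares are not matched for brightness. Most members were dim, and with genes in the lowest 40% of means left out, 43.6% of genes were called. A change that was both called and at least 2-fold was found in Apob, Rbp4, Fbp1 and Apoe (10.8% of members), against 5.28% of all genes. The median change of the members was 0.087 on the log2 scale, against 0.023 over all genes, and 26 of 37 changed by less than 0.3 in size, as did 67.2% of all genes. The 2 arrays of one group lay wholly above or below those of the other for 22 members (59.5%), against 66.7% of all genes. Both p53 on arrays were above both p53 off arrays for 16 members, where 36.3% of all genes showed this order.

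**Figure D2:**
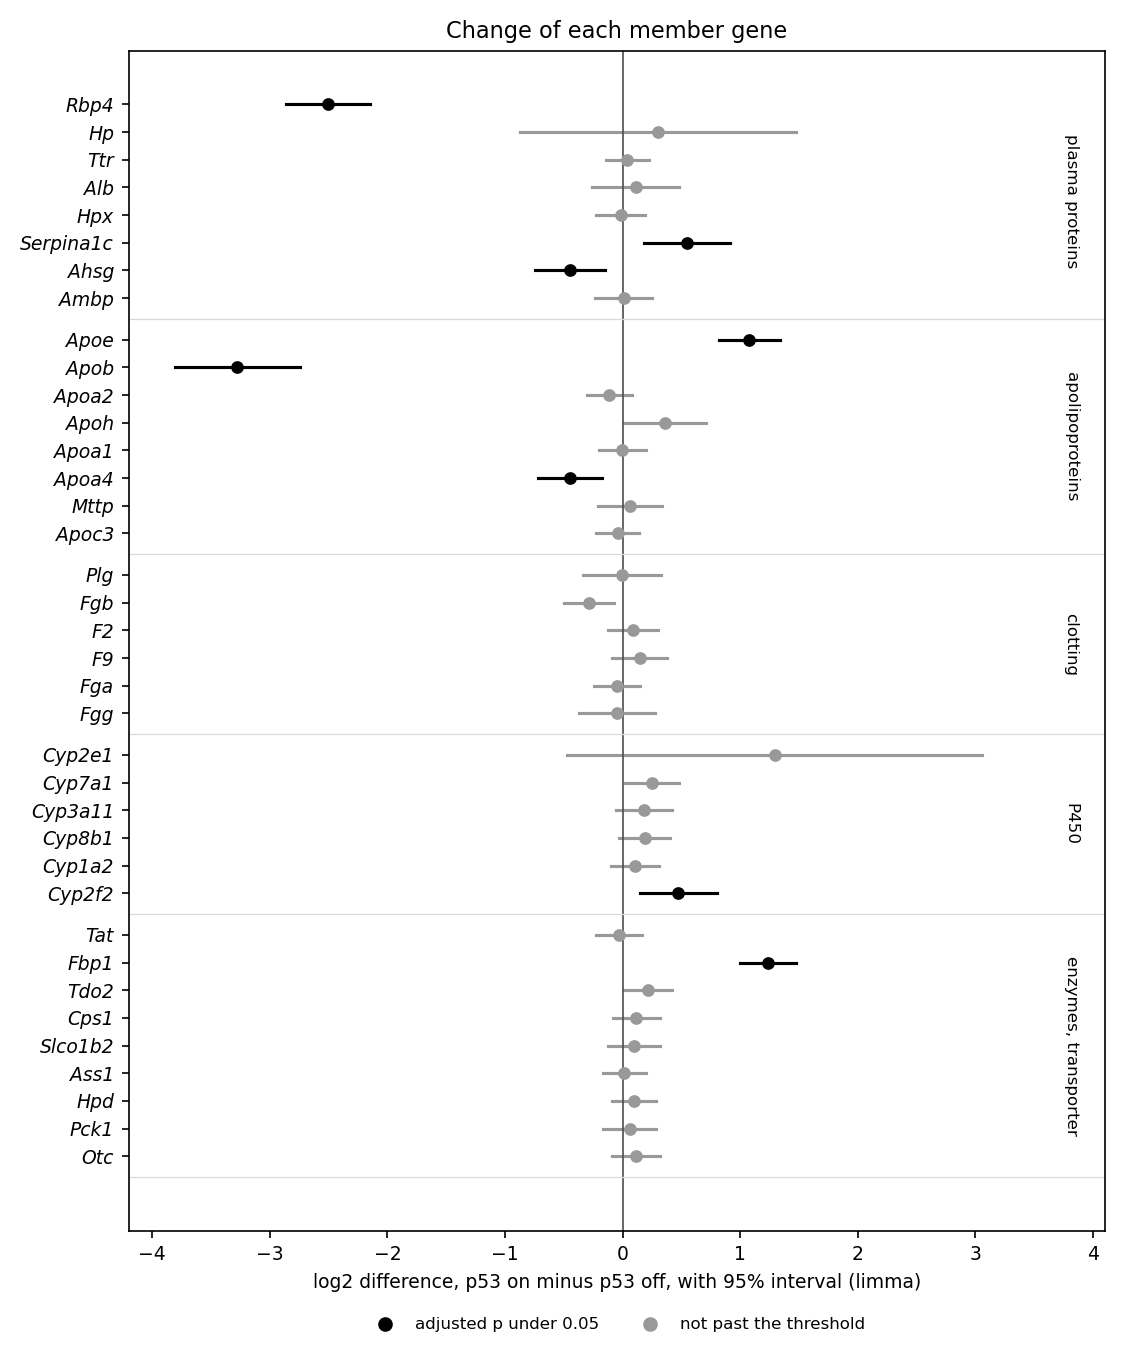
Log2 difference, p53 on minus p53 off, of each of the 37 measured members (horizontal axis) by class, with its 95% interval from limma (n = 2 arrays a group). Black points passed an adjusted p of 0.05 and grey points did not. Apob (-3.27) and Rbp4 (-2.51) lie far left, Fbp1 (1.24) and Apoe (1.08) to the right, and the interval of Cyp2e1 is the widest of those not called.

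Among the plasma carrier and protease inhibitor genes, 1 of 8 rose and 2 fell, and the median change was 0.026. Rbp4, which encodes the carrier of retinol in blood, read 9.49 and 9.12 in p53 on, against 11.73 and 11.90 in p53 off. Both p53 on arrays were below both p53 off arrays by more than the replicates differed. It fell by 2.51 ± 0.14 (log2 difference with its SE, 2 arrays a group), or 5.68-fold, with a limma adjusted p of 0.00054. The change was -2.69 without p53 on replicate 1, the array with high adipocyte genes, and the adjusted p ran from 0.000102 to 0.0108 over the alternatives.

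The other 2 called genes of this class changed little. Serpina1c, one of the mouse genes for alpha-1-antitrypsin, read 7.39 and 7.04 in p53 on and 6.78 and 6.55 in p53 off, and rose by 0.55 ± 0.15 (SE; 1.46-fold; limma adjusted p = 0.0406). Serpina1c has near-identical gene copies whose RNA can bind the same probes, so its signal may be shared among them. Ahsg, which encodes fetuin-A, an inhibitor of mineral deposition, read 6.16 and 6.31 in p53 on and 6.54 and 6.82 in p53 off, and fell by 0.45 ± 0.12 (limma adjusted p = 0.0405). The groups did not overlap for either gene. Without p53 on replicate 1 neither call held, with changes of 0.38 (adjusted p = 0.078) for Serpina1c and -0.37 (0.0985) for Ahsg. Without p53 off replicate 2 the adjusted p was 0.209 for Serpina1c and 0.193 for Ahsg. The call of Serpina1c was also lost without p53 off replicate 1 (0.0698), with quantile normalization (0.0518) and with the replicate numbers crossed as a block (0.114), and that of Ahsg with spike-in scaling (0.0783) and the crossed block (0.105).

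The remaining 5 genes of the class did not pass the threshold. Hp, the gene of the haemoglobin-binding protein haptoglobin, read 9.75 and 8.35 in p53 on and 9.05 and 8.44 in p53 off. The spread within each group was larger than the difference between them, which was 0.30 ± 0.47 (SE; limma adjusted p = 0.684). Without p53 on replicate 1 it was -0.40 (adjusted p = 0.284) and without p53 on replicate 2 it was 1.0 (0.0251). Alb differed by 0.11 ± 0.15 (95% interval -0.26 to 0.48), and by -0.11 without p53 on replicate 1 and 0.33 without p53 on replicate 2, where it passed the threshold (adjusted p just under 0.05). Ttr, the gene of the thyroid hormone carrier transthyretin, read 8.87 and 8.83 in p53 on and 8.82 and 8.79 in p53 off, with a 95% interval of -0.14 to 0.22 for the difference. These values come from the brightest of its 4 probe sets, and the means of the others, 5.06 to 5.66, lay within the range of the control probe sets. Hpx, the gene of the haem carrier hemopexin, and Ambp, the gene of the precursor of alpha-1-microglobulin and bikunin, differed by -0.02 and 0.01.

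Among the apolipoprotein genes 1 of 8 rose and 2 fell, where 14.0% of all genes rose and 14.7% fell. The class held the member with the brightest probe set and the one with the largest fall. Apoe, which encodes a lipoprotein protein that liver receptors bind, read 13.86 and 13.83 in p53 on and 12.64 and 12.89 in p53 off. The mean of its probe set was brighter than those of 99.3% of all genes. It rose by 1.08 ± 0.10 (SE, n = 2 against 2; 2.11-fold; limma adjusted p = 0.00183), with 1.07 without p53 on replicate 1. Genes of macrophages, which also make Apoe, were higher in the same arrays: 10 of 15 rose and 0 fell. Their summed unlogged level was 54730 and 46430 in p53 on and 26670 and 29930 in p53 off. Csf1r, the receptor for the macrophage growth factor, rose by 1.16 ± 0.11, and Adgre1, the gene of the F4/80 antigen, by 1.17 ± 0.092. The part of macrophages in the Apoe result was not tested.

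Apob encodes the structural protein of the lipoproteins that liver and intestine secrete. Its brighter probe set (1455593_at) read 7.03 and 6.76 in p53 on, against 9.87 and 10.47 in p53 off. The gap between groups was several times the spread within either. The fall was 3.27 ± 0.21 (SE; 9.67-fold; limma adjusted p = 0.000751), and the change was -3.41 without p53 on replicate 1. The other probe set of Apob (1457554_at) went the other way without a call, at 7.56 and 7.43 in p53 on and 7.27 and 7.34 in p53 off (0.19 ± 0.084; adjusted p = 0.172 over all probe sets). With the mean of both probe sets the change was -1.54. The fall of Apob therefore rests on 1 of 2 probe sets. That probe set represents the gene only through its high p53 off values, since in p53 on it was the dimmer of the 2.

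Apoa4, which encodes an apolipoprotein of chylomicrons, read 6.98 and 6.76 in p53 on and 7.23 and 7.40 in p53 off, with no overlap between groups. It fell by 0.45 ± 0.11 (SE; 1.36-fold; limma adjusted p = 0.0319), in 1 of its 2 probe sets, and the other differed by 0.02 ± 0.072. The call was lost with the mean of both probe sets (change -0.21; adjusted p = 0.108), and without p53 on replicate 2 (0.0739), p53 off replicate 1 (0.0681) or p53 off replicate 2 (0.182). With the replicate number as a block its adjusted p was 0.0719, and under spike-in scaling 0.0568. The other 5 genes did not pass. Apoh, which encodes beta-2-glycoprotein I, differed by 0.36 ± 0.14 (adjusted p = 0.113). Apoa1 and Apoa2, the main proteins of high-density lipoprotein, differed by less than 0.001 and by -0.11, Apoc3, an inhibitor of lipoprotein lipase, by -0.04, and Mttp, which loads lipid onto the Apob protein, by 0.06. The class median, -0.02, was 0.11 under spike-in scaling and 0.02 without p53 on replicate 1, so it has no settled sign.

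Some keratin and progenitor genes fell in the arrays in which Rbp4 and Apob fell. Of 12 measured genes of fetal liver and progenitors, 5 fell (Krt18, Cd24a, Krt8, Krt19 and Sox9) and 1, Epcam, rose, and 5 of the 12 had both p53 on arrays above both p53 off arrays. The summed unlogged level of the list, to which the bright genes Krt8, Krt18 and Cd24a contribute most, was 20980 and 19340 in p53 on and 46720 and 53090 in p53 off. Krt18, a keratin gene of simple epithelia, read 12.35 and 12.22 in p53 on and 13.79 and 13.99 in p53 off, a change of -1.61 ± 0.10 (SE). Afp, the fetal counterpart of albumin, read 8.47 and 5.33 in p53 on and 9.16 and 9.15 in p53 off. The 2 p53 on arrays differed from each other by far more than the p53 off arrays did, and the difference of -2.25 ± 0.95 was not called (adjusted p = 0.141). Intestinal genes, listed because the intestine makes Apob and Apoa4, included 2 of 6 that fell, Cdx2 (-0.99 ± 0.16) and Vil1 (-0.68 ± 0.13), and none rose. Their part in the Rbp4 and Apob results was not tested.

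**Figure D3:**
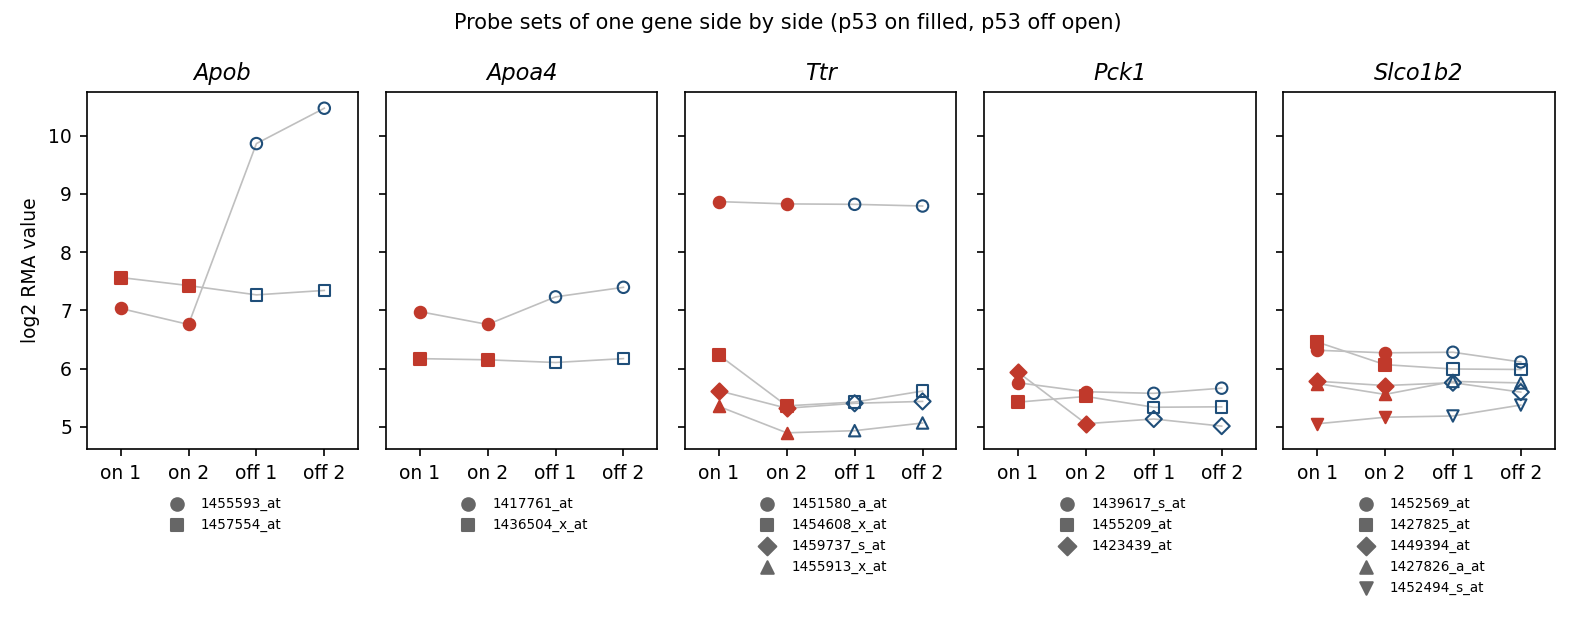
Log2 RMA value (vertical axis) of every probe set of 5 members in each array (horizontal axis; on 1 and on 2 are p53 on, filled red, and off 1 and off 2 are p53 off, open blue), with 1 marker shape and line per probe set. The fall of Apob and that of Apoa4 are each seen in 1 of 2 probe sets, and the 3 dim probe sets of Ttr and 2 of 3 of Pck1 are highest in p53 on replicate 1.

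Probe sets of 1 gene were set side by side for the 11 members that had more than 1, and 26 had a single one. In a fit across all 45037 probe sets that are not controls, 7 of the 58 member probe sets (12.1%) were called, 3 higher and 4 lower, against 22.8% of all. Every member called at the gene level was also called there except Cyp2f2 (adjusted p = 0.0521). Ttr had 1 bright probe set and 3 dim ones with means of 5.06 to 5.66, and 1 of these (1454608_x_at) read 6.23 in p53 on replicate 1 and 5.36 in p53 on replicate 2, against 5.42 and 5.61 in p53 off. A dim probe set of Pck1 (1423439_at) was also highest in p53 on replicate 1, at 5.94 and 5.05 in p53 on and 5.13 and 5.01 in p53 off. Of 4 Apoa1 probe sets none was called, nor any of 5 for Slco1b2, the gene of a bile acid and drug uptake transporter.

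None of the 6 clotting and fibrinolysis genes passed the threshold, and limma gave 1, Fgb, an unadjusted p under 0.05. Plg, which encodes plasminogen and had the highest mean of the class, read 6.41 and 6.52 in p53 on and 6.29 and 6.65 in p53 off. The p53 on values lay within the range of the p53 off values. Fgb, the fibrinogen beta chain gene, read 5.84 and 5.87 in p53 on and 6.07 and 6.22 in p53 off, a difference of -0.29 ± 0.085 (SE; limma adjusted p = 0.0567). It passed under 4 of the alternatives, among them quantile normalization (0.0455) and trend and robust eBayes (0.0333). Fga and Fgg, which encode the other 2 chains, differed by -0.05 each, F2, the prothrombin gene, by 0.09 and F9, the clotting factor IX gene, by 0.15. All 6 genes had means at or below 6.46, within the range of the Bacillus control probe sets.

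The 6 member cytochrome P450 genes differed in 1 direction. Their p53 on arrays were above the p53 off arrays for 6 of 6, an order that 36.3% of all genes showed. The class median was 0.22, against 0.023 over all genes. Of the 6, 1 was called. P450 genes outside the members were mixed. Cyp1a1, Cyp27a1, Cyp4a14 and Cyp7b1 showed the same order, and the groups overlapped for Cyp2b10, Cyp2c29, Cyp2d10 and Cyp39a1. The differences of the 6 members stayed positive under every alternative that tested them, the 3 other scalings included. Centring each array on its median gave a class median of 0.15, and scaling to the hybridization spike-in controls gave 0.35, a scaling that moved the median of all genes by 0.131. Cyp2f2, which oxidizes naphthalene and is known in mouse from lung club cells and periportal liver, read 6.29 and 5.95 in p53 on and 5.71 and 5.57 in p53 off. It rose by 0.47 ± 0.13 (SE; limma adjusted p = 0.046), with all values within the range of the control probe sets. The call was lost without p53 on replicate 1 (0.31; adjusted p = 0.0868), p53 off replicate 1 (0.106) or p53 off replicate 2 (0.225), and with quantile normalization (0.053), centring on the median (0.0525) or the crossed block (0.11).

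Cyp2e1, an ethanol-oxidizing enzyme gene of the hepatocytes around central veins, read 9.71 and 7.39 in p53 on and 7.27 and 7.24 in p53 off. A single array, p53 on replicate 1, was high. The difference of 1.29 ± 0.71 (SE; 2.45-fold) was not called (limma adjusted p = 0.237). It was 0.13 (adjusted p = 0.377) without that array and 2.45 (0.000156) without the other p53 on array. Cyp2e1 and Hp were the 2 members at least 0.5 higher in p53 on replicate 1 than in p53 on replicate 2, a gap that 1.16% of all genes showed. Muscle and adipocyte genes were high in the same array, and their part in the Cyp2e1 and Hp values was not tested. Hp was higher in replicate 1 than in replicate 2 in both groups, and so were the neutrophil genes S100a8, at 9.08 and 7.77 in p53 on and 9.44 and 8.20 in p53 off, and S100a9, at 8.27 and 7.39 in p53 on and 8.62 and 7.53 in p53 off. Their part in the Hp values was not tested either. Car3, the carbonic anhydrase gene of muscle, fat and liver, read 12.70 and 6.71 in p53 on and 8.34 and 8.95 in p53 off.

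**Figure D4:**
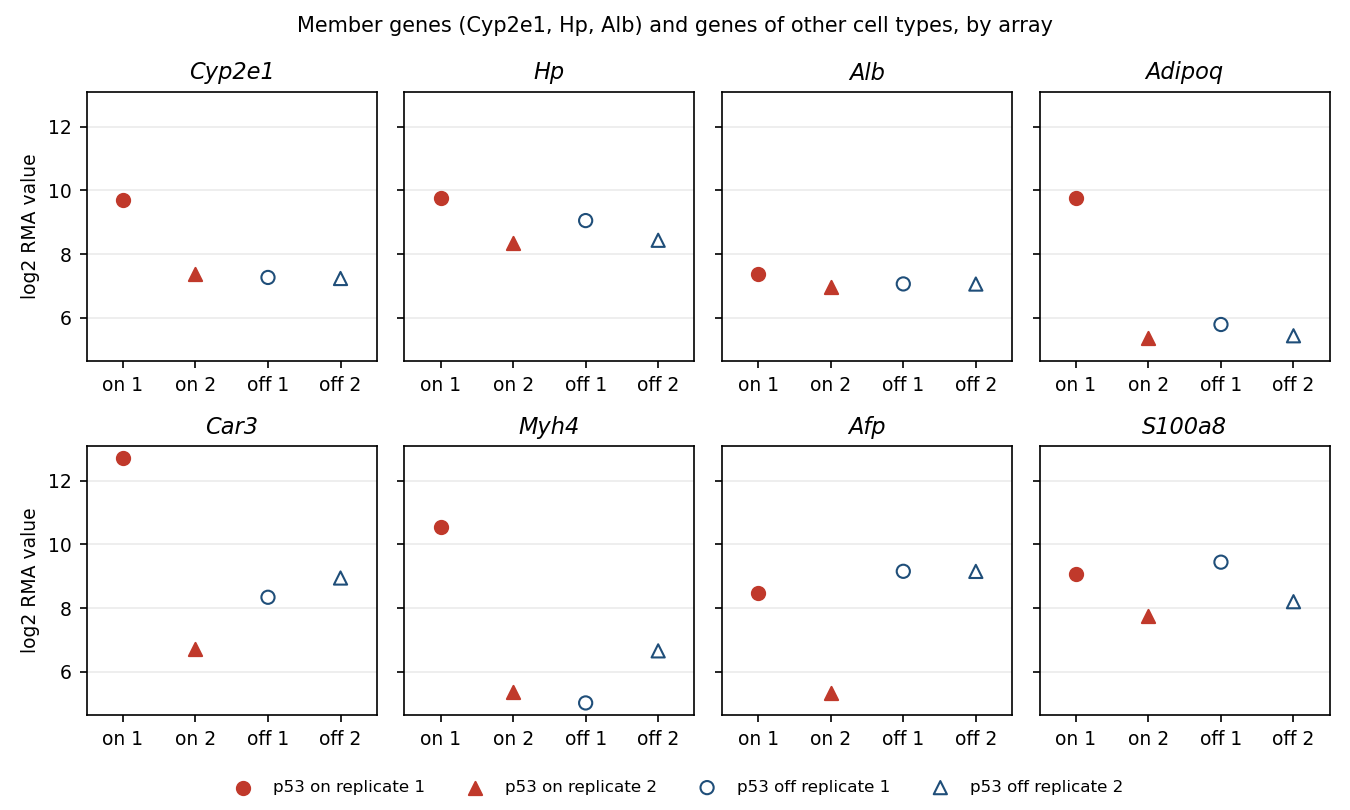
Log2 RMA value (vertical axis) in each array (horizontal axis; on 1 and on 2 are p53 on, off 1 and off 2 are p53 off) of the members Cyp2e1, Hp and Alb and of 5 genes outside the members: Adipoq, Car3, Myh4, Afp and the neutrophil gene S100a8. Of these, Car3 and Afp are also genes of liver or fetal liver. Cyp2e1 (9.71), Adipoq (9.77), Car3 (12.70) and Myh4 (10.53) are each highest in p53 on replicate 1, while Afp (5.33) is lowest in p53 on replicate 2.

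The other 4 P450 genes had small differences and were not called. Cyp7a1, the rate-limiting enzyme of bile acid synthesis, differed by 0.25 ± 0.092 (SE; limma adjusted p = 0.0999), and Cyp8b1, which sets the balance of bile acids by making cholic acid, by 0.19 ± 0.087. Cyp3a11, a broad drug-clearing enzyme, differed by 0.18 ± 0.096 and Cyp1a2, a dioxin-inducible one, by 0.11 ± 0.081. The 2 probe sets of Cyp7a1 lay in the same direction, at 0.25 and 0.12. Under spike-in scaling Cyp7a1, Cyp8b1 and Cyp3a11 passed the threshold (adjusted p = 0.0308, 0.0491 and 0.0465).

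Of the 9 genes for enzymes and a transporter 1 rose and 0 fell, where 14.0% of all genes rose and 14.7% fell. The median change was 0.096. Fbp1, which encodes fructose-1,6-bisphosphatase, an enzyme of glucose production, read 7.52 and 7.71 in p53 on, against 6.35 and 6.41 in p53 off. Its p53 on values lay above the range of the control probe sets and its p53 off values within it. It rose by 1.24 ± 0.095 (SE, n = 2 against 2; 2.35-fold; limma adjusted p = 0.00103), a fold that can understate the change since the p53 off values are not set apart from background, with 1.33 without p53 on replicate 1 and 1.14 without p53 on replicate 2. Over the alternatives that tested it the adjusted p ran from 0.000371 to 0.0134. The array has 1 probe set for it, so no second one could be compared.

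The other 8 genes of the class did not pass the threshold, and their intervals were narrow. Tat, the tyrosine aminotransferase gene, had the highest mean of the class and read 8.35 and 8.27 in p53 on and 8.30 and 8.37 in p53 off (95% interval of the difference -0.22 to 0.17). Tdo2, which opens the ring of tryptophan, read 6.80 and 6.89 in p53 on and 6.58 and 6.67 in p53 off, a difference of 0.22 ± 0.081 that was not called (limma adjusted p = 0.106). For the first steps of the urea cycle, Cps1 differed by 0.12 ± 0.081, Otc by 0.12 ± 0.081 and Ass1 by 0.01 ± 0.072. Hpd, an enzyme of tyrosine breakdown, and Slco1b2 differed by 0.10 each and Pck1 by 0.06. These genes were dim, and on a compressed scale near background a change in RNA can show as a smaller change in value. Over the 29 members that were not called, the 95% interval reached a median of 0.214 to either side of the difference, and 1.77 for Cyp2e1.

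Other genes of the same functions, in 6 lists beside the members, were called at shares on both sides of the 28.7% of all genes, from 1 of 12 glucose and transporter genes to 6 of 14 lipid transport genes. Of 20 other plasma protein genes 2 rose, Cp (0.96 ± 0.10, SE), which encodes the copper carrier ceruloplasmin, and F7 (0.48 ± 0.12), and 1 fell, Serpind1 (-0.70 ± 0.093), the heparin cofactor II gene. Of 14 lipid transport genes 5 rose and 1 fell. Pltp, the phospholipid transfer protein gene, rose by 1.07 ± 0.096, the cholesterol exporter gene Abca1 by 0.82 ± 0.13 and the Apoe receptor gene Lrp1 by 0.81 ± 0.096, while Scarb1, the receptor for high-density lipoprotein, fell by 0.83 ± 0.078. Apoc2 and Apoc4, which neighbour Apoe in the genome, were the other 2 that rose, at 0.75 ± 0.17 and 0.48 ± 0.087.

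Of 19 other urea cycle and amino acid genes 3 rose and 4 fell. The largest fall was that of Arg1, the arginase gene of liver and of some macrophages, at -1.09 ± 0.15 (SE), followed by Got1 (-0.85 ± 0.15), Slc25a13 (-0.80 ± 0.081), the mitochondrial aspartate carrier gene, and Asl (-0.77 ± 0.13). Of 19 other P450 and xenobiotic genes 4 rose and 0 fell: Sult1a1 (1.69 ± 0.15), a sulfotransferase gene, Fmo1 (1.47 ± 0.13), the alcohol dehydrogenase gene Adh1 (1.33 ± 0.098) and Cyp27a1 (0.37 ± 0.10). Of 12 glucose and transporter genes 1 rose, the pyruvate carboxylase gene Pcx (0.49 ± 0.11). Of 14 acute phase genes 3 rose: Steap4 (3.60 ± 0.11), Saa3 (1.01 ± 0.21) and Lrg1 (0.55 ± 0.12).

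The liver-enriched transcription factors split, with 4 of 20 higher and 4 lower. Foxa1, a pioneer factor of liver genes, read 9.51 and 9.30 in p53 on and 11.15 and 11.21 in p53 off, and fell by 1.78 ± 0.098 (SE). Onecut2 read 10.09 and 9.19 in p53 on and 10.80 and 10.69 in p53 off, and fell by 1.10 ± 0.28. Foxa2 fell by 0.81 ± 0.073 and Hnf4a, which is central to hepatocyte identity, by 0.58 ± 0.087. Cebpa, the gene of C/EBP alpha, rose by 0.87 ± 0.074, as did Nr2f2 by 0.87 ± 0.081, Nr2f1 by 0.74 ± 0.073 and Tbx3 by 0.43 ± 0.092. Foxa1, Foxa2 and Hnf4a thus fell in the arrays in which Rbp4 and Apob fell, and no relation between them was tested.

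Among markers of host cells, 9 of 12 endothelial genes rose and 1, Lyve1, fell. Tek, the angiopoietin receptor gene, rose by 1.40 ± 0.19 (SE), and 3 endothelial genes were at least 0.5 higher in p53 on replicate 2 than in p53 on replicate 1. Of 12 fibroblast and stellate cell genes 10 rose and 1, Lrat, fell, with summed unlogged levels of 98950 and 101200 in p53 on and 60750 and 52530 in p53 off. Lum rose by 3.01 ± 0.15 and Dcn by 2.53 ± 0.26. Of 8 neutrophil genes 1 rose, Csf3r (0.38 ± 0.081), and of 8 T and B lymphocyte genes none was called, with the smallest p for Cd3e (0.25 ± 0.076; adjusted p = 0.0637, unadjusted p = 0.0201). The part of the endothelial and fibroblast genes in the member results was not tested.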

How the data were processed

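Total RNA was extracted with Trizol, amplified and biotin-labelled, per the labels' protocols. The deposited table holds log2 values made by the authors with RMA, per the submitters' processing notes. The same notes list limma 3.14.4. RMA corrects background, normalizes arrays to each other and summarises probes, and can compress changes of dim genes. The authors' annotation is not given in the sources used here.

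The table held 45101 probe sets, 64 of them controls. A platform annotation gave 34945 probe sets exactly 1 symbol, 932 several and 9160 none. A gene was represented by its brightest such probe set over the 4 arrays, with no filter on dim genes and no pseudocount. Differences, p53 on minus p53 off, were fitted over 18193 genes in limma 3.58.1 (lmFit and eBayes, under R 4.3.3; 2 residual and 5.47 moderated degrees of freedom), and again over 45037 probe sets, with Benjamini-Hochberg adjustment over each whole table. The threshold was an adjusted p of 0.05, and intervals are 95%. The fit was tested on simulated data. A permutation test of 2 against 2 arrays cannot pass 0.05, so none was used. The number of arrays limits the precision.

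Every member was described, with per-array values for called members and for the member of each class with the highest level, and other genes by list. The members and lists were chosen with earlier results of these data known, and the muscle and adipocyte lists, Afp, S100a8 and other genes outside this rule after their values were seen. Alternatives were the replicate number as a block, 3 scalings, leaving out the lowest 40% of genes, 2 other choices of probe set, trend and robust eBayes, and leaving out each array. Python 3.11.15 counted the motifs and, with matplotlib 3.10.9, drew the figures. The genes of p53 and HRAS are not analysed here.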

Additional observations from a re-analysis of the deposited data

How the results depend on the processing

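Whether the replicate numbers pair the samples is not known, since the labels name no shared animal or day. The deviations of same-numbered arrays correlated at -0.154 over genes, which cannot exclude a pairing. With the replicate block 4323 genes were called (5223 without it), 4 members rose and 3 fell, and Apoa4 was the member that lost its call. With the numbers crossed, an alternative chosen after seeing the data, 3954 genes were called, and 2 members rose and 3 fell. Apob, Rbp4, Apoe and Fbp1 kept direction and call under every alternative that tested them. With genes in the lowest 40% of means left out, 9 members were tested, and 1 rose (Apoe) and 2 fell (Rbp4 and Apob). Of the 10916 genes tested there, 43.6% were called. The other members called as reported were too dim to enter. Apob entered there through its high p53 off values, so its call under that filter adds nothing. Spike-in scaling gave 9 members higher and 2 lower (12 member probe sets called, against 7), where 34.7% of all genes were called. It moved the members' median change to 0.218 and that of all genes to 0.154. With it 70% of called genes were higher, against 48.8% as reported and 37.9% with arrays centred on their medians, where the members' median was 0.0119. Quantile normalization left 2 members higher. Leaving out 1 array, with the lone array of a group assumed to vary like the other group, gave 2228 to 5055 called genes (3259 without p53 off replicate 1 and 2228 without p53 off replicate 2), 2 to 7 members higher, 2 to 3 lower, a median of 0.0403 to 0.0933 and 4 to 12 called member probe sets.

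Members that changed sign were not called as reported or under the setting that turned them. With spike-in scaling the values were 0.115 for Hpx, 0.13 for Apoa1, 0.0186 for Apoa2, 0.0884 for Apoc3, 0.0832 for Fga, 0.0813 for Fgg, 0.125 for Plg and 0.103 for Tat. With centring they were -0.0333 for Ttr, -0.0654 for Ambp, -0.0132 for Mttp, -0.0606 for Ass1 and -0.0145 for Pck1. With quantile normalization they were -0.019 for Ambp, -0.00603 for Mttp and -0.0262 for Ass1, and Mttp was at -0.00806 with the mean of its probe sets. Without single arrays the lowest and highest values were -0.106 and 0.328 for Alb, -0.397 and 1.0 for Hp, -0.0906 and 0.0583 for Hpx, -0.0909 and 0.11 for Ambp, -0.0436 and 0.0423 for Apoa1, -0.0699 and 0.193 for Mttp, -0.223 and 0.123 for Fgg, -0.185 and 0.173 for Plg, -0.0125 and 0.041 for Ass1, -0.0171 and 0.138 for Pck1 and -0.072 and 0.0163 for Tat. The cause of these shifts was not tested beyond what each setting changes. Only 2 arrays a group and signals near background for 16 members limit what could be detected.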
